A study of Mus musculus with 48 samples.

Results

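A set of 10 genes of carbonic anhydrase, water and ion transport were followed through 6 tissues of the mouse after Roux-en-Y gastric bypass (RYGB). The genes were picked by symbol, with earlier results of these data in view, as Car2, Car4, Aqp1, Cftr, Slc9a3, Slc26a3, Slc26a6, Slc4a4, Slc12a2 and Guca2b, which are 10 of the 15541 genes listed in any of the 6 expression tables. All 10 were listed in duodenal, jejunal and ileal villi, 6 in subcutaneous white adipose tissue (WAT), 5 in liver and 6 in skeletal muscle. Cftr, Slc9a3, Slc26a3 and Guca2b had no entry outside the gut, and Car4 had none in liver.

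The animals were male C57Bl6 mice made obese by high fat feeding, without any transgene. They underwent RYGB or sham surgery and then received an elemental liquid diet for 9 days, and the labels also mention a return to high fat diet. Mice were fasted and killed at a fixed morning hour, the villi were scraped off after cold EDTA, and polyadenylated RNA was sequenced. RYGB and sham libraries numbered 3 and 4 in duodenum, 3 and 4 in jejunum, 5 and 5 in ileum, and 4 and 4 in each of WAT, liver and muscle. Ages were not given, and nothing in the labels ties the libraries of different tissues to individual mice.

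RYGB joins a small stomach pouch to a limb of jejunum, so that food no longer passes the duodenum, while bile and pancreatic juice reach the food further down. Villus epithelium takes up sodium, chloride and water through paired exchangers of the brush border: a sodium-hydrogen exchanger and chloride-bicarbonate exchangers, fed with protons and bicarbonate by carbonic anhydrases. Secretion runs the other way, with chloride loaded at the basal side by a sodium-potassium-chloride cotransporter and released through the CFTR channel, which the gut peptides guanylin and uroguanylin open through their receptor, a guanylate cyclase.

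The tables gave CPM, the reads of a gene scaled to the library total, rounded to 0.1, and read depth could not be recovered from them, so no counting interval is given. Column sums ran from 925122 to 998777 CPM. Defining markers of enterocytes, adipocytes, hepatocytes and myofibres were present in the tissues of their labels. The bile acid genes Fabp6, Slc10a2 and Fgf15, which define distal ileum, summed to only 1.1 to 44.0 CPM in the ileal sham libraries and 25 to 134 CPM in the ileal RYGB libraries. This sum ran higher after RYGB with overlapping ranges, whereas ileal Car2 and Aqp1 were lower, and its part in their differences was not tested. Gata4, a factor of the upper small intestine, stood in ileum at 105 to 183 CPM against 122 to 239 CPM in jejunum. The libraries labelled ileum are therefore named by their label alone. Among duodenal libraries, the pancreatic elastase transcript Cela1 stood at 1979, 4817, 9.8 and 7.1 CPM in sham and at 5.9, 11.7 and 517.5 CPM in RYGB. All ileal RYGB libraries were run on 1 sequencing lane and all ileal sham libraries on 2 others, so that the lane and the operation cannot be told apart there.

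In short, Car2 and Aqp1 were far lower after RYGB in jejunum and ileum, Aqp1 and Car4 were lower in WAT, and the other 7 genes met the criterion in no tissue. A gene was called differentially expressed (DEG) when its limma adjusted p, taken over all tested genes of the tissue, was under 0.05 and its fold change was at least 1.5. Since the genes were chosen with these contrasts in view, their differences are described by size and standard error (SE), and no p is attached to them. The count of DEGs among the tested genes of the set was 0 of 10 in duodenum, where 0.00922% of all tested genes were DEGs, 2 of 10 in jejunum against 9.75%, and 2 of 10 in ileum against 6.05%. It was 2 of 6 in WAT against 24.1%, 0 of 5 in liver against 7.08% and 0 of 6 in muscle against 0%. Unadjusted limma p values under 0.05 were found for 3181 of all tested genes in liver and 1746 in muscle. The RYGB and sham ranges were apart for 1 of 10 genes of the set in duodenum, 2 of 10 in jejunum, 2 of 10 in ileum, 1 of 6 in WAT, 1 of 5 in liver and 1 of 6 in muscle, against 15.6%, 22.2%, 9.34%, 41.2%, 16.4% and 7.4% of all tested genes.

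**Figure D1:**
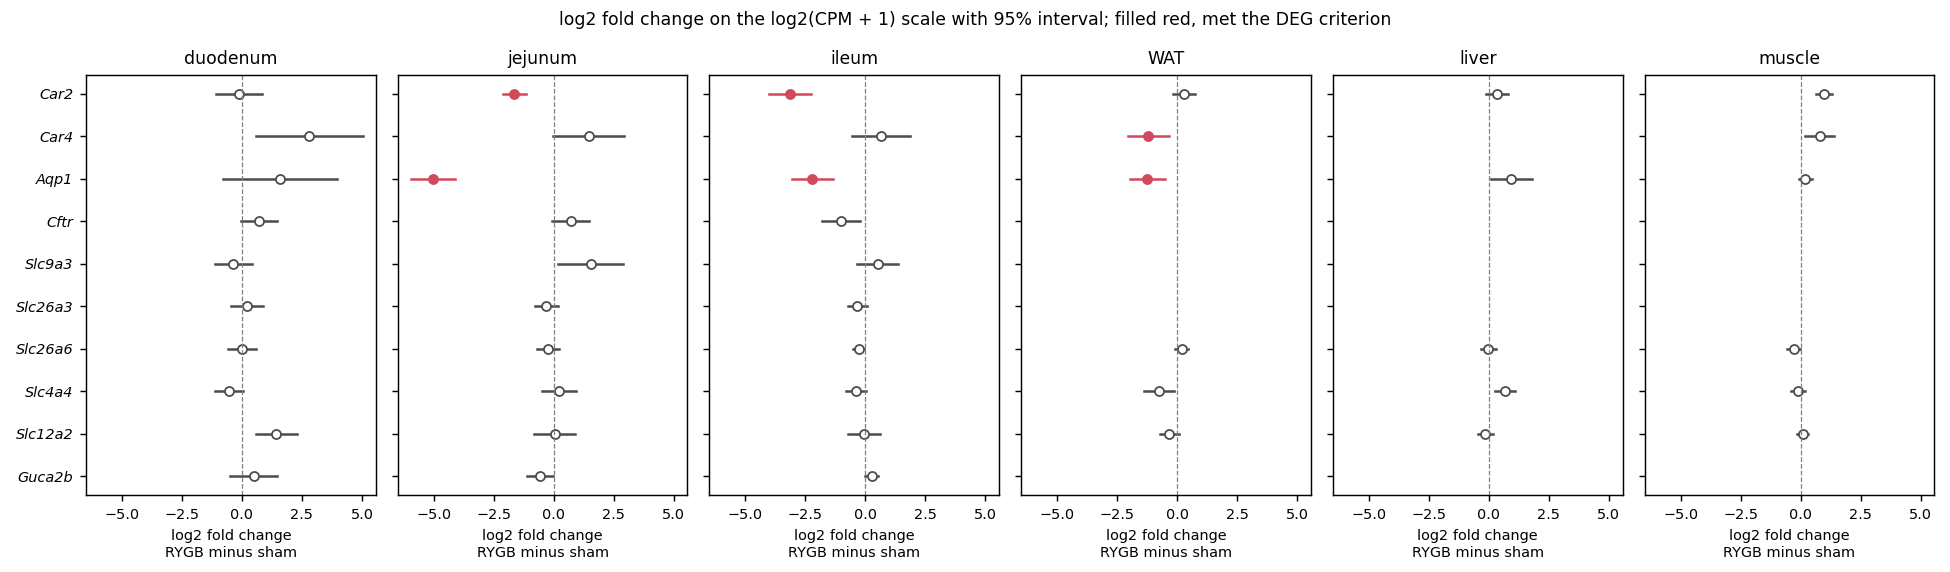
log2 fold changes (RYGB minus sham, log2(CPM + 1) scale) of the 10 genes in each tissue, with 95% intervals from limma; filled red points met the DEG criterion and missing rows had no entry. The filled points are 6, all on the lower side: Car2 and Aqp1 in jejunum and ileum, and Car4 and Aqp1 in WAT.

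Car2 encodes the abundant cytosolic carbonic anhydrase, which interconverts carbon dioxide and bicarbonate (ENSMUSG00000027562, GRCm38 chr3:14886273-14900770, plus strand). In jejunum its level was 51.7, 54.0, 81.6 and 76.5 CPM in the sham libraries and 18.0, 23.1 and 19.2 CPM in the RYGB libraries. The groups did not overlap, and the highest RYGB library lay well under the lowest sham library. The log2 fold change was -1.64 ± 0.21 (SE, n = 3 and 4), a fold of 3.13 on the log2(CPM + 1) scale. In ileum the sham libraries held 39.4, 47.1, 111.1, 67.1 and 60.2 CPM and the RYGB libraries 6.2, 2.6, 5.3, 18.6 and 4.2 CPM. Here too every RYGB library lay below every sham library, with a log2 fold change of -3.15 ± 0.40 (SE, n = 5 and 5). Both differences stayed DEGs when any 1 library was left out, at -1.75 to -1.53 in jejunum and -3.52 to -2.91 in ileum.

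Duodenal Car2 showed no such separation. The sham libraries held 240.5, 95.7, 90.0 and 80.7 CPM and the RYGB libraries 61.1, 136.8 and 136.2 CPM, which overlap, and the log2 fold change was -0.12 with a 95% interval from -1.09 to 0.85. The sham library at 240.5 CPM stood apart from the other 3. It also had the highest summed Pdx1 and Gata4, the duodenal identity genes, at 393 CPM against 165 CPM in the lowest sham library. Pancreatic Cela1 stood at 1979 CPM in this library and at 4817 CPM in sham replicate 2, where Car2 was 95.7 CPM. The part of either in the Car2 level of 240.5 CPM was not tested.

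In muscle the order was turned. Car2 stood at 7.9, 10.3, 6.8 and 6.7 CPM in sham and 15.5, 17.9, 19.2 and 14.0 CPM in RYGB, with no overlap and a log2 fold change of 0.99 ± 0.15 (SE, n = 4 and 4). It did not meet the DEG criterion with all libraries, and did so without RYGB replicate 4 (1.07) or without sham replicate 3 (0.93). Over all genes of muscle, DEGs numbered 210 and 57 in these fits and 0 with all libraries. Summed myofibre markers of muscle were 96045 to 129650 CPM in RYGB and 134568 to 165544 CPM in sham. The smooth muscle sum, mostly Des, was 3781 to 4073 and 2666 to 2891 CPM, while endothelial and leukocyte sums overlapped. Lane 3 held 2 sham libraries alone and lane 4 held 2 RYGB libraries alone. The part of these in the Car2 difference was not tested. In WAT and liver, Car2 was low in both groups, between 4.0 and 14.7 CPM, and the groups overlapped.

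Car4 encodes a carbonic anhydrase anchored to the outer face of the brush border and of capillary endothelium (ENSMUSG00000000805, chr11:84957786-84966044, plus strand). Its levels spread more widely between libraries than those of any other gene of the set in duodenum. Duodenal sham libraries held 0.6, 3.2, 10.1 and 46.7 CPM, a 77.8-fold range, and RYGB libraries 68.6, 43.8 and 50.1 CPM. The groups overlapped through sham replicate 4 alone: with all libraries the log2 fold change was 2.81 ± 0.97 (SE) and not a DEG, and without that library it was 3.69 and a DEG. Over all genes of duodenum, 757 were DEGs without that library and 1 with all libraries. In jejunum, sham libraries held 3.6, 5.5, 34.1 and 22.1 CPM and RYGB libraries 46.3, 17.7 and 44.1 CPM. These ranges overlapped as well, and the 95% interval of the log2 fold change reached from -0.03 to 2.93. Ileal Car4 ranged from 30.8 to 102.6 CPM in sham and from 21.8 to 261.2 CPM in RYGB, with an interval from -0.55 to 1.86.

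Since exonic lengths are 2.42 kb for Car2 and 1.97 kb for Car4, the levels of both genes were set side by side per kb. In jejunum the ratio of Car2 to Car4, in CPM per kb, was 1.94 to 11.7 over the sham libraries and 0.316 to 1.06 over the RYGB libraries. In ileum it was 0.567 to 1.59 in sham and 0.0081 to 0.231 in RYGB. Thus Car2 was the higher of both per kb in 4 of 4 jejunal sham libraries and in 1 of 3 RYGB libraries, and in 1 of 5 ileal sham libraries and 0 of 5 RYGB libraries. In duodenum the ratio exceeded 1 in 4 of 4 sham and 2 of 3 RYGB libraries, but ran from 1.4 to 325 among the sham libraries with Car4 at 0.6 to 46.7 CPM.

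**Figure D2:**
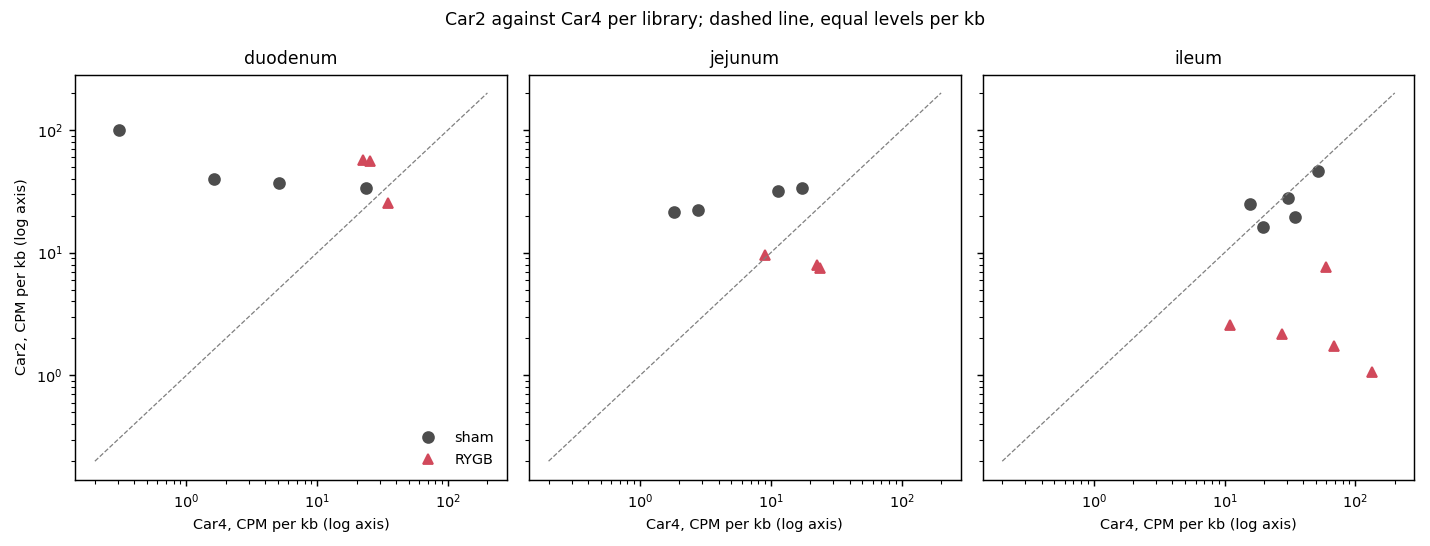
Car2 (vertical) against Car4 (horizontal), both in CPM per kb on log axes, 1 point per villus library (circles, sham; triangles, RYGB); the dashed line marks equal levels. In jejunum and ileum the triangles lie below the circles, and in duodenum 3 of the 4 circles lie far to the left at low Car4.

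WAT was the tissue with the highest Car4 among sham groups, with a median of 102 CPM. Its sham libraries held 63.9, 56.1, 180.6 and 140.8 CPM and its RYGB libraries 37.6, 59.2, 36.2 and 39.4 CPM, so that RYGB replicate 2 overlapped sham replicate 2. The log2 fold change was -1.19 ± 0.37 (SE) and met the DEG criterion, but the call was lost in 6 of 14 alternatives, at -1.16 to -0.90 when RYGB replicate 1, 3 or 4 or sham replicate 3 or 4 was left out and at -0.85 with lane as a covariate. Muscle Car4 was low, at 2.2 to 6.4 CPM in sham and 5.3 to 9.6 CPM in RYGB, with overlap. The 5 genes whose log2(CPM + 1) followed Car2 most closely over the 24 villus libraries, among 10448 genes, were Pla2g16 (Pearson r = 0.886), Rtn4rl1 (0.885), Ncoa7 (0.879), Rnf130 (0.867) and Gm43302 (0.842). For Car4 they were Bcl2l15 (0.858), Sdad1 (0.845), Ppef2 (0.830), Naaa (0.823) and Slc7a7 (0.809), of which Ppef2, Naaa and Sdad1 are neighbours on chromosome 5 in RefSeq. Within duodenum alone, r with Car2 was 0.36, -0.05, 0.58, 0.82 and 0.08 in that order, against 0.76 to 0.91 in jejunum and 0.80 to 0.92 in ileum. With Car4 it was 0.91 to 0.98 in duodenum, 0.42 to 0.90 in jejunum and 0.52 to 0.88 in ileum. These correlations describe libraries that share segment, surgery and lane, and carry no p.

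Car2 lies at the end of a row of carbonic anhydrase genes on chromosome 3, 13.8 kb beyond Car3. Of its 14 relatives in the pathway list, which was drawn up by function rather than by change but with earlier results known, 4 could be tested in each villus segment. Adjusted p values of pathway genes are therefore descriptive. Car13, Guca2a, Gucy2c, Pdzk1 and the duodenal and ileal values of Aqp3 and Aqp7 were picked after their values were seen. Car13, a cytosolic enzyme of the same row, did not move with Car2: in jejunum it was 57.9, 52.8, 52.6 and 43.0 CPM in sham against 69.3, 75.4 and 80.2 CPM in RYGB, a log2 fold change of 0.54 ± 0.17 (SE) with an adjusted p of 0.071 (limma). Car9, a membrane enzyme with its active site outside the cell that is known for its induction in low oxygen, rose in jejunum. It held 12.8, 38.1, 16.7 and 20.9 CPM in sham and 44.5, 90.7 and 87.1 CPM in RYGB, which did not overlap, with a log2 fold change of 1.74 ± 0.36 and an adjusted p of 0.017 (limma). In ileum none of the 4 tested relatives was a DEG.

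Aqp1 encodes a water channel of epithelia, capillary endothelium and red cells (ENSMUSG00000004655, chr6:55336432-55348555, plus strand). It showed the lowest RYGB-to-sham ratio of the 10 genes in jejunum. The sham libraries held 205.2, 104.2, 150.8 and 166.4 CPM and the RYGB libraries 1.9, 9.5 and 2.4 CPM. The highest RYGB library lay more than 10-fold under the lowest sham library, and the log2 fold change was -5.03 ± 0.41 (SE, n = 3 and 4). In ileum Aqp1 stood at 388.9, 354.2, 247.0, 447.0 and 247.0 CPM in sham and at 53.2, 31.4, 152.3, 47.2 and 134.3 CPM in RYGB. The ranges were again apart, with a log2 fold change of -2.22 ± 0.39 (SE, n = 5 and 5). Leaving out any 1 library kept the call, with -5.61 to -4.68 in jejunum and -2.50 to -1.94 in ileum. Without ileal sham replicates 1 and 5, the pair with the lowest sum of ileal marker genes, the log2 fold change of Aqp1 was -2.27 and no longer a DEG, while that of Car2 was -3.36 and still one. In that fit 29 of 10673 tested genes were DEGs, against 650 of 10735 with all libraries.

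Marker genes of other cell types were set beside these values. Of all tested genes, 9.75% were DEGs in jejunum and 6.05% in ileum. Of 5 endothelial markers, Pecam1 and Tek were listed in jejunum, with sums of 0.5 to 2.7 CPM in RYGB and 2.6 to 3.7 CPM in sham, and none was listed in ileum, while 0 of 5 erythroid markers were listed in either. The summed absorptive enterocyte markers were lower in jejunum after RYGB (39745 to 59861 CPM against 73808 to 88516 CPM), with 2 of 7, Apoa4 and Lct, being DEGs. Most of that sum was the apolipoprotein gene Apoa4, with a median of 38333 CPM in sham and 12308 CPM in RYGB. The median of the disaccharidase gene Sis was 12018.5 CPM in sham and 15645 CPM in RYGB, and Vil1, the brush border protein villin, held 3120 to 4150 CPM in sham and 4151 to 4329 CPM in RYGB. Paneth cell markers were higher in jejunum (82 to 158 against 26 to 55 CPM, 2 of 4 DEGs) and leukocyte markers were lower (9.6 to 19.7 against 27.5 to 41.8 CPM, 1 of 4). The tuft cell sum, 96 to 257 CPM in RYGB and 36 to 60 CPM in sham, held 1 DEG of 4, Trpm5, with medians of 168 and 22.5 CPM, while the medians of Dclk1 were 13.9 and 12.35 CPM and those of Avil 6.3 and 6.55 CPM. In ileum the leukocyte sum was 6.8 to 21.3 CPM in RYGB and 20.7 to 56.5 CPM in sham, with 3 of 4 markers DEGs, and the Paneth cell sum 37.6 to 151.3 and 23.4 to 57.8 CPM, with 0 of 4. The part of these shifts in the Car2 and Aqp1 differences was not tested, and in bulk RNA fewer cells of a type and less RNA per cell cannot be told apart.

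In duodenum Aqp1 was uneven among sham libraries, as Car4 was, and in the same library. That library, sham replicate 4, had the lowest summed Pdx1 and Gata4 in duodenum, at 164.6 CPM, with sham replicate 3 at 183.3 CPM. Its goblet cell sum was 5592 CPM, against 1618 to 2521 CPM in the other sham libraries and 4211 to 6515 CPM in RYGB. Its leukocyte sum was 35.4 CPM, against 12.6 to 15.7 CPM and 34.0 to 88.6 CPM. Its Paneth, tuft and crypt sums lay within the range of the other sham libraries. The part of these sums in its Aqp1 and Car4 levels was not tested. For Aqp1, sham replicates 1 to 3 held 2.4, 14.0 and 14.7 CPM and sham replicate 4 held 131.2 CPM, against 94.7, 31.0 and 50.3 CPM in RYGB. The log2 fold change of 1.58 had a 95% interval from -0.80 to 3.96, and without sham replicate 4 it was 2.54 and no DEG. Along the sham gut the median rose from 14.4 CPM in duodenum over 159 CPM in jejunum to 354 CPM in ileum, with the duodenal and jejunal ranges overlapping at sham replicate 4 and the jejunal and ileal ranges apart (at most 205 CPM against at least 247 CPM). These tables were made separately, so no test was run between tissues.

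**Figure D3:**
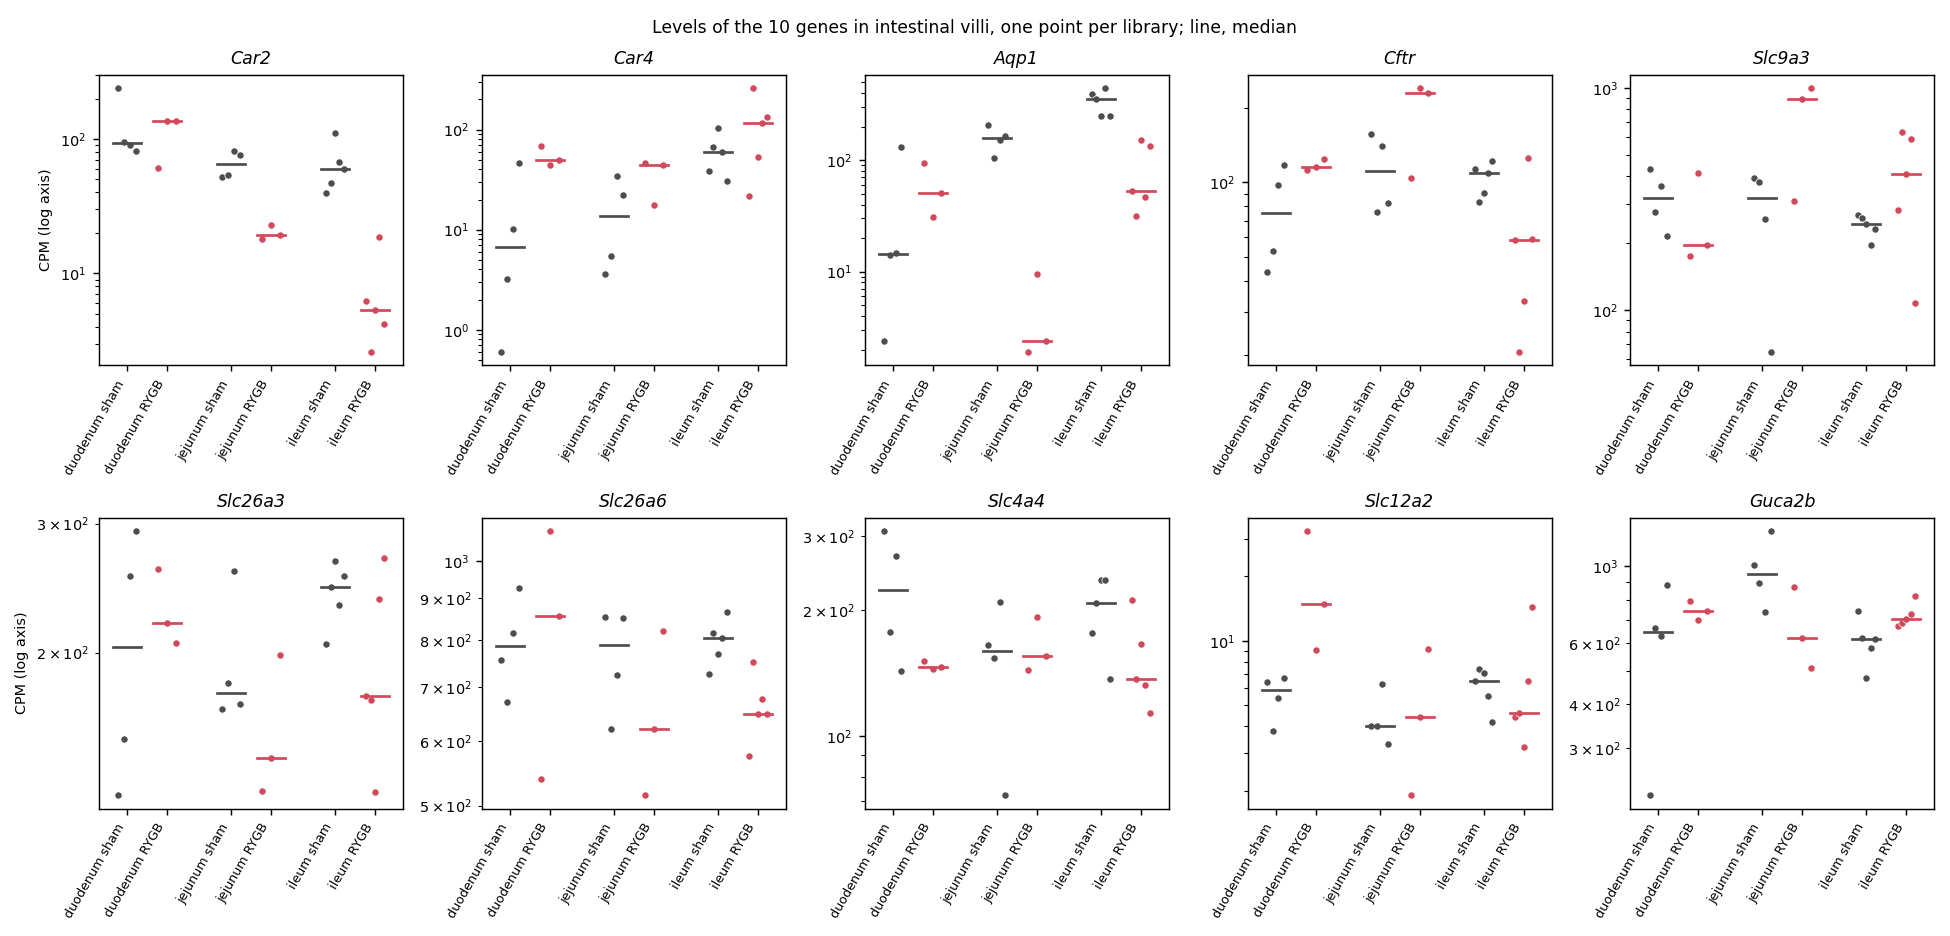
Levels of the 10 genes in villi, in CPM on log axes whose ranges differ by panel; each point is 1 library (grey, sham; red, RYGB) and each line a group median. RYGB and sham points are apart for Car2 and Aqp1 in jejunum and ileum and for Slc12a2 in duodenum, and overlap for all other genes and segments.

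WAT had the highest sham level of Aqp1 of the 6 tissues, at 454.3, 743.0, 1441.5 and 959.6 CPM, against 277.8, 420.8, 340.2 and 366.3 CPM after RYGB. The groups did not overlap and the log2 fold change was -1.25 ± 0.32 (SE, n = 4 and 4), a DEG under each of 14 alternatives. All 5 endothelial markers were DEGs in the same direction in WAT, with sums of 945 to 1363 CPM after RYGB and 1705 to 2807 CPM in sham. Of all tested genes in WAT, 9.23% were lower DEGs and 14.9% higher ones. The summed adipocyte markers were also lower (2295 to 4355 against 5438 to 6601 CPM, 1 of 4 a DEG), and all 4 leukocyte markers were higher (1377 to 3729 against 406 to 653 CPM). Their part in the Aqp1 and Car4 differences of WAT was not tested. In liver, Aqp1 ranged from 22.8 to 118.6 CPM in sham and from 106.2 to 140.7 CPM in RYGB, and in muscle from 230.4 to 349.5 CPM and 294.0 to 331.0 CPM, each with overlap.

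Of 4 other aquaporins tested in jejunum, 2 were DEGs, both lower, where 5.13% of all tested genes were lower DEGs. Aqp3 and Aqp7, aquaporins that also pass glycerol, lie 44.6 kb apart on chromosome 4, and both were DEGs in jejunum. Aqp3 held 47.0, 110.7, 85.2 and 73.5 CPM in sham and 16.8, 2.5 and 2.9 CPM in RYGB, without overlap, and fell by 3.62 on the log2 scale (SE 0.52, adjusted p = 0.0032, limma). Aqp7 held 54.8, 117.7, 90.2 and 90.0 CPM in sham and 67.0, 4.7 and 7.8 CPM in RYGB, where RYGB replicate 1 lay within the sham range, and fell by 2.52 (SE 0.70, adjusted p = 0.049, limma). The Aqp7 call was lost, at -2.72 to -1.82, without any 1 library other than RYGB replicate 1, while that of Aqp3 held. In duodenum both were lower in every RYGB library than in every sham library, without being DEGs: Aqp3 by 1.09 on the log2 scale (adjusted p = 0.12, limma) and Aqp7 by 1.48 (adjusted p = 0.069, limma). In ileum, where Aqp1 was lower, Aqp3 and Aqp7 overlapped between groups, with log2 fold changes of 0.07 ± 0.22 and 0.34 ± 0.35 (SE).

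The 250 bases before the RefSeq start of Aqp1 and of Aqp3 (GRCm38.p6), water channels that were lower in jejunum, are shown 5′ to 3′ on the gene's strand, with matches to any of 4 searched words in capitals. The windows are chr6:55336049-55336298 on the plus strand and chr4:41098184-41098433 on the minus strand, and no annotated exon overlaps either.
Aqp1: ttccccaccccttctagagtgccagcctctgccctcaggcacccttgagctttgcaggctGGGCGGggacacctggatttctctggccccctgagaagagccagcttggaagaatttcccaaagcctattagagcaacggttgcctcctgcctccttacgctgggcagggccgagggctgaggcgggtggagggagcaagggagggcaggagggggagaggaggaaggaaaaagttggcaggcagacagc
Aqp3: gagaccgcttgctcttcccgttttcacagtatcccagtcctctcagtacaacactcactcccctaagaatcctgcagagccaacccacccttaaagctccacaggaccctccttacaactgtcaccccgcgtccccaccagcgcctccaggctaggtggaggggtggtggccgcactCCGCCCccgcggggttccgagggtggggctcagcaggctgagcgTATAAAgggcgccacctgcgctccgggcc
The words searched on both strands were that of the TATA box (spelled TATAAA), that of the GC box (spelled GGGCGG), that bound by GATA factors (spelled AGATAA) and that bound by CDX factors (spelled TTTATG). The Aqp1 window held the GC box word beginning 190 bases before the start and no match to the other 3. The Aqp3 window held the TATA box word 29 bases before the start and the GC box word, on the opposite strand, 73 bases before it, without overlap of the matches. Over all 32536 such windows in RefSeq, 12.3% held the TATA box word, 33.0% the GC box word, 9.97% the GATA word and 10.8% the CDX word. Of the 10 genes, 8 had an entry in this promoter table, Car2 and Slc12a2 being the others.

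Among the brush border exchangers, levels were high and differences between surgeries small or uneven. Slc9a3 encodes the sodium-hydrogen exchanger of absorption (ENSMUSG00000036123, chr13:74121457-74169442). In jejunum its sham libraries held 394.6, 378.4, 257.3 and 64.7 CPM and its RYGB libraries 308.1, 890.2 and 1001.1 CPM. RYGB replicates 2 and 3 exceeded every sham library and RYGB replicate 1 did not, and the 95% interval of the log2 fold change ran from 0.16 to 2.91 without the gene being a DEG. Ileal Slc9a3 was 196.1 to 266.4 CPM in sham, the narrowest sham range of the 3 segments, and 107.0 to 634.7 CPM in RYGB, which spans it on both sides. The gene was a DEG there only without RYGB replicate 5, at 0.93. In duodenum the ranges were 216.4 to 430.3 and 174.5 to 412.8 CPM.

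Slc26a6 and Slc26a3 encode the chloride-bicarbonate exchangers of the apical membrane. Slc26a6 (ENSMUSG00000023259, chr9:108853283-108913049) was the next to the highest of the 10 per kb after Guca2b in every sham segment, with sham medians of 786, 787 and 804 CPM in duodenum, jejunum and ileum, and varied little: 725.2 to 865.7 CPM over 5 ileal sham libraries against 576.3 to 750.1 CPM in RYGB. Its log2 fold change there was -0.27 ± 0.10 (SE), below the fold threshold, and the 95% interval, from -0.50 to -0.04, did not reach a change of 1.5-fold. Outside the gut Slc26a6 was at 3.1 to 10.3 CPM in every library. Slc26a3 (ENSMUSG00000001225, chr12:31390871-31473917), which also overlaps the pseudogene Gm9359, ranged from 127.7 to 293.0 CPM over all villus libraries. Its log2 fold changes were 0.22 ± 0.29, -0.31 ± 0.22 and -0.34 ± 0.18 (SE) in duodenum, jejunum and ileum, with overlap in each.

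Slc4a4, the basolateral sodium-bicarbonate cotransporter (ENSMUSG00000060961, chr5:88886818-89239653), was found in every tissue and was highest in duodenum, with a sham median of 223 CPM, although the ranges of sham duodenum, ileum, jejunum and liver overlapped from each to the next. In liver it was 90.3, 147.4, 115.5 and 148.4 CPM in sham and 152.5, 175.6, 239.3 and 226.4 CPM in RYGB. All RYGB libraries exceeded all sham libraries, and the log2 fold change was 0.66 ± 0.19 (SE). It missed the DEG criterion with all libraries and met it without RYGB replicate 1, at 0.78. In WAT it was 41.9, 36.0, 31.0 and 36.9 CPM in sham and 20.6, 33.4, 24.2 and 11.7 CPM in RYGB, a log2 fold change of -0.75 ± 0.27 (SE) with overlap at RYGB replicate 2. Without that library the value was -0.97 and a DEG.

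The pathway relatives of these exchangers showed few DEGs in villi, where 9.75% of all tested genes were DEGs in jejunum and 6.05% in ileum. Of 6 tested anion exchangers and bicarbonate transporters, none was a DEG in jejunum, and in ileum Slc4a7, another sodium-bicarbonate cotransporter, fell by 0.81 (SE 0.17, adjusted p = 0.017, limma), from 48.1 to 89.4 CPM in sham to 28.8 to 43.6 CPM in RYGB. Of 5 tested sodium-hydrogen exchangers and their scaffolds, Pdzk1, a brush border scaffold protein, fell in jejunum by 0.67 (SE 0.18, adjusted p = 0.04, limma), a call lost without any 1 library other than RYGB replicate 1 (log2 fold change -0.70 to -0.56 in those fits), and none was a DEG in ileum.

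On the secretory side, Cftr encodes the anion channel of chloride and bicarbonate secretion (ENSMUSG00000041301, chr6:18170687-18322768). The annotated antisense gene Gm15592 and pseudogene Gm15595 lie within it. In duodenum it was 43.3, 52.8, 97.3 and 117.0 CPM in sham and a narrow 112.2, 115.5 and 124.6 CPM in RYGB, overlapping at sham replicate 4. In jejunum it was 156.5, 76.1, 139.6 and 82.6 CPM in sham and 103.6, 240.9 and 228.9 CPM in RYGB. In ileum the sign was the opposite: 112.9, 83.1, 90.5, 108.6 and 122.4 CPM in sham and 58.6, 20.6, 33.2, 124.8 and 59.1 CPM in RYGB, where 4 of 5 RYGB libraries lay below all sham libraries and RYGB replicate 4 lay above them. The log2 fold changes were 0.71 ± 0.33, 0.72 ± 0.35 and -1.03 ± 0.37 (SE), none of them a DEG, and the ileal value was -1.36 and a DEG without RYGB replicate 4.

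Slc12a2, the cotransporter that loads chloride for secretion (ENSMUSG00000024597, chr18:57878678-57946821), was the lowest of the 10 in mean CPM per kb in every sham segment, at 0.403 to 0.562. In duodenum it was 6.4, 3.8, 5.4 and 6.7 CPM in sham and 32.6, 9.1 and 14.8 CPM in RYGB, apart from each other but widely spread after RYGB, with a log2 fold change of 1.44 ± 0.38 (SE) and no DEG call under any of 13 alternatives. Summed markers of crypt stem and dividing cells were 148.3 and 92.1 CPM in RYGB replicates 1 and 3, and 18.2 to 63.9 CPM in sham with RYGB replicate 2 inside that range, and leukocyte markers 34.0 to 88.6 and 12.6 to 35.4 CPM, and their part in this difference was not tested. In jejunum and ileum it stood between 1.9 and 14.4 CPM, with log2 fold changes of 0.04 ± 0.38 and -0.05 ± 0.30 (SE). Its level was highest in muscle, with a sham median of 121 CPM, followed by WAT at 53.3 and liver at 11.2 CPM, and the sham ranges of these 3 tissues did not overlap.

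Guca2b encodes uroguanylin (ENSMUSG00000032978, chr4:119656607-119658954, minus strand). It was the highest of the 10 in mean CPM per kb in every sham segment, at 688 to 1121. In jejunum the sham libraries held 1008.9, 892.9, 735.9 and 1262.6 CPM, and the RYGB libraries held 871.1, 623.4 and 510.3 CPM, a log2 fold change of -0.55 ± 0.24 (SE) with RYGB replicate 1 inside the sham range. In ileum it was 477.3 to 740.8 CPM in sham and 671.1 to 821.8 CPM in RYGB, and in duodenum 219.0 to 881.1 and 700.8 to 796.0 CPM. Guca2a, the guanylin gene 17.1 kb away, had duodenal means of 8.35 ± 9.04 CPM in sham and 33.8 ± 9.30 CPM in RYGB (SD), which did not overlap (log2 fold change 2.33 ± 0.63 SE, adjusted p = 0.15, limma). Their receptor gene Gucy2c was lower in every RYGB library than in every sham library of ileum, at 498 ± 46.0 against 653 ± 66.2 CPM (SD, n = 5 and 5), by 0.39 on the log2 scale with an adjusted p of 0.051 (limma), and was no DEG.

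**Figure D4:**
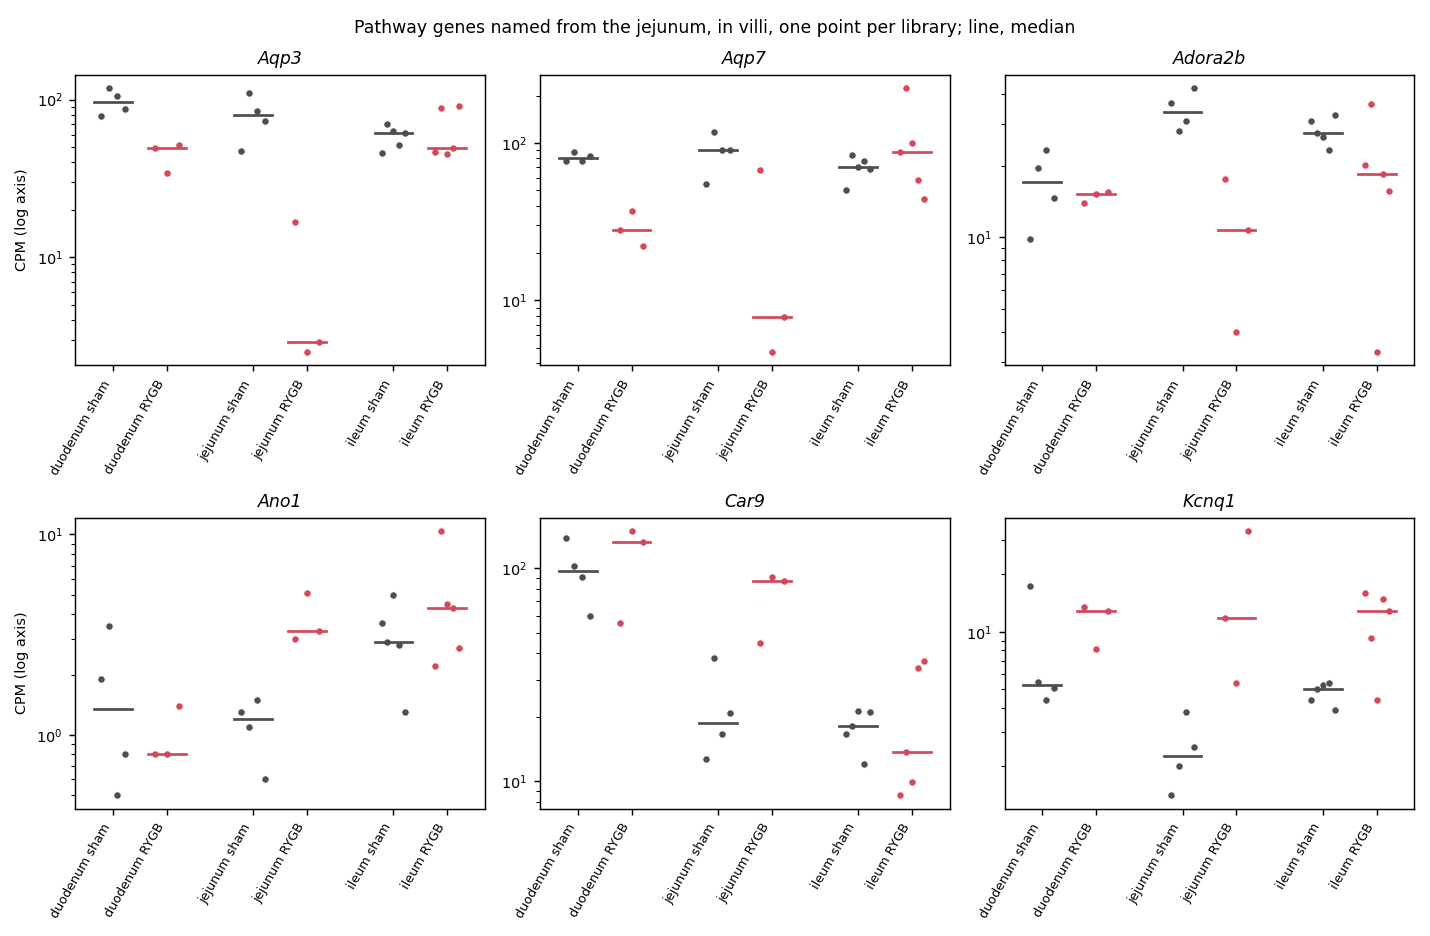
Levels of 6 pathway genes named from jejunum, across the villus segments, in CPM on log axes whose ranges differ by panel; each point is 1 library (grey, sham; red, RYGB) and each line a group median. In jejunum, Aqp3 and Adora2b lie lower and Kcnq1, Ano1 and Car9 lie higher in RYGB without overlap, while RYGB replicate 1 of Aqp7 lies among the sham points.

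Of the 71 pathway genes, 38 were tested in each villus segment, and 0 were DEGs in duodenum, 7 in jejunum (18.4% of those tested) and 4 in ileum (10.5%). In jejunum 3 were higher and 4 lower, where 4.62% of all tested genes were higher and 5.13% lower. In ileum 1 was higher and 3 were lower, where the shares of all genes were 1.64% and 4.42%. In duodenum, where limma called 1 gene of all tested, 2040 genes had an unadjusted p under 0.05. The median log2 fold changes of the list were 0.28, -0.09 and -0.04, beside 0.12, -0.04 and -0.09 over all genes. In jejunum 2 of 6 tested secretory channels and chloride cotransporters rose and none fell. Kcnq1, a potassium channel that sustains chloride secretion, rose from 1.4 to 3.8 CPM in sham to 5.4 to 33.6 CPM in RYGB (log2 fold change 2.09, SE 0.49, adjusted p = 0.026, limma). The calcium-activated chloride channel Ano1 rose from 0.6 to 1.5 CPM to 3.0 to 5.1 CPM (1.17, SE 0.24, adjusted p = 0.016, limma). Adora2b, the adenosine receptor that raises cyclic AMP, fell by 1.77 (SE 0.38, adjusted p = 0.019, limma), from 28.0 to 42.5 CPM in sham to 4.0 to 17.5 CPM. Only 3 pathway DEGs were left in jejunum without RYGB replicate 2 or without sham replicate 4, and 4 without RYGB replicate 3, with Ano1 at 0.98 and Car9 at 1.57 without RYGB replicate 2, Kcnq1 at 2.12 and Adora2b at -1.67 without sham replicate 4, and Car9 at 1.59 without RYGB replicate 3. Kcnq1 was also lost without sham replicate 1, at 1.94.

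In ileum Kcnq1 rose by 1.00 on the log2 scale (SE 0.28, adjusted p = 0.046, limma), with RYGB libraries at 16.0, 9.3, 4.4, 14.8 and 12.8 CPM and sham libraries at 4.4, 5.0, 5.3, 5.4 and 3.9 CPM, so that 4 of 5 RYGB libraries exceeded all sham libraries. The call was lost, at 0.86 to 1.04, without any 1 library other than RYGB replicate 3. Clcn2, a chloride channel of the villus, fell from 400.0, 390.7, 350.5, 491.4 and 471.7 CPM in sham to 254.7, 250.0, 251.6, 248.0 and 254.5 CPM in RYGB, a very even group (log2 fold change -0.73, SE 0.11, adjusted p = 0.0061, limma). All 4 ileal calls of the list were lost when sham replicates 1 and 5 were left out together, which leaves 3 sham libraries, with log2 fold changes of 0.89 for Kcnq1, -0.92 for Slc4a7 and -0.69 for Clcn2. DEGs among all genes numbered 29 of 10673 in that fit, against 650 of 10735 with all libraries.

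**Figure D5:**
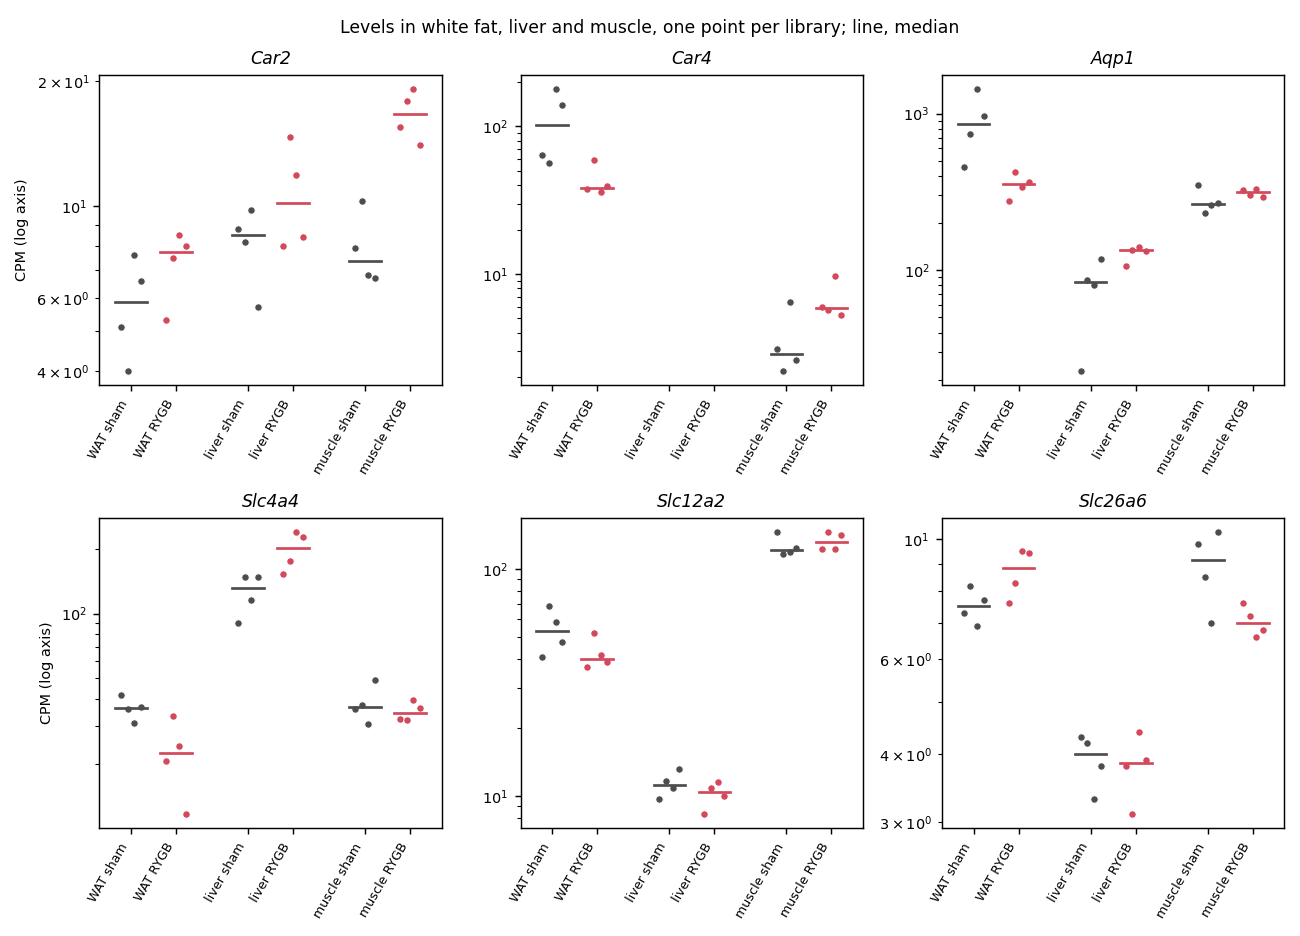
Levels of the 6 genes listed outside the gut, in WAT, liver and muscle, in CPM on log axes whose ranges differ by panel; each point is 1 library (grey, sham; red, RYGB), each line a group median, and Car4 had no entry in liver. Groups are apart for Aqp1 in WAT, Slc4a4 in liver and Car2 in muscle.

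Outside the gut, WAT held most pathway DEGs: 16 of 44 tested (36.4%). Of these 6 were higher and 10 lower, where 14.9% and 9.23% of all tested genes were. Vipr1, a receptor for vasoactive intestinal peptide, rose from 0.4 to 1.4 CPM in sham to 9.9 to 46.1 CPM in RYGB (log2 fold change 3.33, SE 0.42). Slc4a8, a sodium-driven chloride-bicarbonate exchanger, rose from 7.1 to 9.9 CPM to 36.8 to 125.2 CPM (2.69, SE 0.34, adjusted p = 0.0012, limma), and the sodium pump subunit Atp1b1 from 3.3 to 8.4 CPM to 13.8 to 37.4 CPM (1.92, SE 0.36, adjusted p = 0.0057, limma). Aqp7, the glycerol channel of adipocytes, fell by 1.16 (SE 0.28, adjusted p = 0.014, limma), from 283.4, 284.1, 611.6 and 535.3 CPM to 178.1, 234.9, 163.7 and 152.9 CPM. Fxyd3, a regulator of the sodium pump, fell from 1.3 to 4.1 CPM to 0.1 to 0.3 CPM (-1.51, SE 0.24). Every gene listed in WAT held at least 1 CPM in 4 or more libraries. Fxyd3 reached this through sham libraries alone, and Vipr1 only with its RYGB libraries. That filter helped to set their separation, so no p is given for either. Without sham replicate 3, Fxyd3 fell below the minimum mean and was not tested. Car8, a carbonic anhydrase relative without enzyme activity, fell from a mean of 7.25 to 2.55 CPM with overlap (-1.29, SE 0.41, adjusted p = 0.038, limma). The Car8 call was lost, at -1.38 to -1.15, without RYGB replicate 3 or sham replicate 1, 2 or 3. In WAT the leukocyte marker sum given above was higher after RYGB and the endothelial and adipocyte sums were lower, and their part in these differences was not tested.

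In liver 5 of 39 pathway genes were DEGs (12.8%). Higher were 2 and lower were 3, where 5.79% and 1.29% of all tested genes were. Sgk1, a kinase that promotes sodium transport, rose from 22.6, 18.3, 16.5 and 19.2 CPM to 35.6, 48.2, 56.0 and 28.1 CPM (log2 fold change 1.05, SE 0.20, adjusted p = 0.013, limma). Car13 was barely present, at 0.4 to 0.7 CPM in sham and 1.5 to 3.6 CPM in RYGB (1.00, SE 0.21). Every gene listed in liver held at least 1 CPM in 4 or more libraries, which Car13 reached through RYGB libraries alone. Its separation and its place among the 5 DEGs were thus set in part by that filter, and no p is given. Aqp8, a hepatocyte water channel, fell by 0.98 (SE 0.23, adjusted p = 0.028, limma), from 152.1 to 293.8 CPM to 69.9 to 125.6 CPM, and Car14, a membrane carbonic anhydrase, fell by 0.86 (SE 0.22, adjusted p = 0.037, limma). Clcn2 fell by 0.59 (SE 0.16, adjusted p = 0.049, limma). The Clcn2 call was lost, at -0.64 to -0.44, without any 1 library other than RYGB replicate 1. That of Car14 was lost, at -0.92 to -0.70, without RYGB replicate 2 or 3 or any 1 sham library, that of Aqp8 without RYGB replicate 2 (-0.80) or 3 or sham replicate 2 (-0.80) or 4 (-0.92), and that of Car13, at 0.95 to 0.98, without RYGB replicate 3 or sham replicate 1. Pathway DEGs numbered 1 without RYGB replicate 3, and 2 without RYGB replicate 2 or sham replicate 1, 2 or 4. DEGs among all liver genes numbered 329, 544, 394, 468 and 387 in these fits, in that order, against 836 with all libraries. The 4 leukocyte markers were DEGs in liver as well, with sums of 102 to 269 CPM after RYGB and 52 to 74 CPM in sham, and their part in these differences was not tested. In muscle none of 37 tested pathway genes was a DEG.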

How the data were processed

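Polyadenylated RNA of 48 libraries was sequenced, and per the submitters' processing notes reads were assigned to genes with HTSeq on GRCm38; the aligner and versions are not given in the sources used here. The unit is read from the values: the deposited columns hold CPM rounded by the authors to 0.1, from separately filtered tables. Repeated lines of a gene held equal values and were used once, and 12 broken lines of the liver table were left out. Read depth is unknown, so precision comes from the spread between libraries alone, which may be technical where labels do not separate animals. Unmapped columns numbered 0.

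Groups were taken from sample titles. Within each tissue, genes averaging 1 CPM or more were fitted as log2(CPM + 1), RYGB minus sham, with limma 3.58.1 (R 4.3.3; trended empirical Bayes, two-sided), and p-values were adjusted over all genes of the tissue by Benjamini-Hochberg. DEGs had an adjusted p under 0.05 and at least a 1.5-fold change on this scale, on which changes of low genes are understated. Each tissue was fitted alone. The fit was also run on simulated data with independent noise per gene. That simulation held no lane or whole-library effects, and no result given here rests on it. Genes of the set, the pathway and marker lists and the tests were chosen with earlier results of these data known. Text names all 10 genes of the set, per tissue up to 6 pathway DEGs of largest change, and the 5 genes most correlated with Car2 and Car4; Car13, Guca2a, Gucy2c, Pdzk1 and the duodenal and ileal values of Aqp3 and Aqp7 were added after their values were seen. Some pathway genes that enter the counts are not reported here by name. Exonic lengths and coordinates were taken from GENCODE M21 (GRCm38), and promoters from RefSeq (GRCm38.p6). Alternatives were a pseudocount of 0.1, no minimum, a minimum of 10 CPM, median-ratio scaling, lane, a replicate block and leaving out libraries. Replicate numbers were not taken as pairs.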

Additional observations from a re-analysis of the deposited data

Results flagged for a closer look

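Of 108 groups of 4 or 5 libraries checked for a library far from the others on the log2(CPM + 1) scale, 2 had one, where chance alone gives about 5.4. The highest duodenal sham library of Car2 (replicate 1, 240.5 CPM, next 95.7 CPM) was separated by 0.845 of the group's range, and the lowest WAT RYGB library of Car8 (replicate 4, 0.4 CPM, next 2.9 CPM) by 0.846.

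Several genes had RYGB libraries all above sham in one tissue and all below in another; these differences between tissues were not tested. For Car2 the log2 fold change in muscle (0.99) exceeded that in jejunum by 2.64 and that in ileum by 4.14. Kcnq1 differed by 3.03 between jejunum (2.09) and WAT (-0.94), and Ano1 by 1.66 between jejunum (1.17) and WAT (-0.49). Slc4a7 differed by 1.35 between WAT (0.54) and ileum (-0.81). Sgk1 differed by 3.57 between liver (1.05) and jejunum (-2.52), and Vipr1 by 3.89 between WAT (3.33) and muscle (-0.57). Jejunal Sgk1 (SE 0.72), the WAT values of Ano1 and Slc4a7 and all muscle values did not meet the DEG criterion. Muscle Vipr1 was low, at 1.0 to 3.2 CPM. Ranges were apart for 41.2% of all tested genes in WAT, 22.2% in jejunum, 16.4% in liver, 9.34% in ileum and 7.4% in muscle. How many genes were apart in opposite directions was not counted.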

How the results depend on the processing

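The Car2 and Aqp1 calls in jejunum held under each of 13 alternatives, and in ileum the Car2 call held under 16 of 16 and the Aqp1 call under 15 of 16. No log2 fold change of a called gene of the set changed sign. With ileal sham replicates 1 and 5 left out together, chosen after seeing the data, 1 gene of the set and 0 pathway genes were DEGs in ileum. Fewer libraries entered that fit, and 29 of all 10673 tested genes were DEGs in it, against 650 of 10735 with all libraries. Without duodenal sham replicates 1 and 2, also chosen after seeing the data, both counts stayed at 0 in duodenum. With a minimum of 10 CPM, which tests fewer genes, pathway DEGs numbered 4 in jejunum, 10 in WAT and 3 in liver. With lane as a covariate they numbered 3 in jejunum, where 1 lane held RYGB replicate 2 alone, so that the fit gave the fold changes obtained without that library (Aqp3 -3.20, Car9 1.57). Lane could not be fitted in duodenum and ileum. Scaling by median ratios moved the median log2 fold change over all genes from 0.12 in duodenum, 0.11 in WAT and 0.13 in liver to close to 0, and gave 3 genes of the set in WAT. It split the DEGs of all genes into 329 higher and 372 lower in ileum (176 and 474 unscaled), 570 and 490 in jejunum (501 and 557), 1642 and 1668 in WAT (1996 and 1235) and 437 and 235 in liver (684 and 152).

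Leaving out 1 library gave 0 to 1 genes of the set in duodenum (1 without sham replicate 4), 1 to 3 in WAT (1 without RYGB replicate 1, 3 or 4 or sham replicate 3 or 4), 0 to 1 in liver (1 without RYGB replicate 1) and 0 to 1 in muscle (1 without RYGB replicate 4 or sham replicate 3). Pathway DEGs ranged from 0 to 6 in duodenum (6 without sham replicate 4), 3 to 8 in jejunum (3 without RYGB replicate 2 or sham replicate 4), 1 to 7 in liver (1 without RYGB replicate 3) and 0 to 1 in muscle (1 without RYGB replicate 4 or sham replicate 3). The DEGs among all genes moved too. They numbered 757 without duodenal sham replicate 4 (1 with all libraries). In jejunum they numbered 462 without RYGB replicate 2 and 730 without sham replicate 4 (1058 with all). In WAT they ran from 2460 to 3765 (3231 with all). In liver they numbered 1204 without RYGB replicate 1 and 329 without RYGB replicate 3 (836 with all). In muscle they numbered 210 without RYGB replicate 4 and 57 without sham replicate 3 (0 with all).

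Correlations of same-numbered libraries ran from -0.281 to 0.389 and were over 0.1 for all pairs in no tissue (3 of 4 pairs in liver, at 0.17 to 0.27), and the libraries closest to their own number were 0 of 6 in duodenum, 1 of 6 in jejunum, 5 of 10 in ileum, 3 of 8 in WAT, 6 of 8 in liver and 1 of 8 in muscle. With a replicate block, genes of the set called numbered 1 in duodenum, 3 in jejunum, 1 in liver and 2 in muscle, and pathway genes 3 in duodenum, 10 in jejunum, 3 in ileum, 17 in WAT, 8 in liver and 1 in muscle. DEGs among all genes then numbered 268 in duodenum, 960 in jejunum, 580 in ileum, 3328 in WAT, 1236 in liver and 184 in muscle. Without the block they numbered 1, 1058, 650, 3231, 836 and 0. In the duodenum and jejunum, the block removes the unpaired sham replicate 4.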
